A study of Mus musculus with 3 samples.

Results

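Foxp3 and 6 genes that regulatory T cells are known to carry were read in leukocytes sorted from lymph nodes draining mouse melanomas. The members, Foxp3, Il2ra, Tnfrsf4, Tnfrsf18, Tnfrsf9, Lrrc32 and Gpr83, were taken by symbol from the count table, where all 7 were found among 17857 genes. They were chosen by name together with their CPM in these same 3 libraries, so the levels are given as a description with no test. All 7 were also among the 15490 genes with at least 10 counts over the libraries.

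The 3 libraries form 1 group, called ckit_pos in the labels and replicates 1, 2 and 3 here, from 3 repeat experiments with no control population. B16F10 melanoma cells, a line of C57BL/6 origin, grew for 14 days in the thighs of C57BL/6J mice that got no treatment. The draining nodes were pooled, and cells with surface Ly6C and c-kit but no CD11c were sorted as precursors. The number and age of mice per pool are not given in the sources used here. Technical spread and differences between the pools cannot be told apart. Levels are normalised read counts (CPM, counts scaled to the library total times its TMM scaling factor). Means carry their SD (n = 3 libraries), and levels are per kilobase of gene where genes are compared with each other.

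Totals ran from 9077195 to 13885509 counts. Kit, which encodes c-kit, measured 5.35 to 9.83 CPM and Cd3e, which belongs to the T cell receptor complex, measured 315 to 439.5 CPM, so the precursor label stood beside high levels of a T cell gene. The share of mitochondrial ribosomal RNA was 17.8% in replicate 1, 6.22% in replicate 2 and 13.1% in replicate 3. The mean over 578 olfactory receptor genes, used here to gauge background, was highest in replicate 1. It was 0.249, 0.0207 and 0.0495 CPM per kilobase in replicates 1, 2 and 3. Hbb-bs, a beta globin gene, measured 1779, 22.7 and 142 CPM in the same order. Cd8a, the gene of a cytotoxic T cell coreceptor chain, was the most uneven of the T cell genes listed, with 8.67 CPM in replicate 1, 526 CPM in replicate 2 and 135 CPM in replicate 3.

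Regulatory T cells are CD4 T cells that restrain other immune cells, and Foxp3 is the transcription factor that defines them. They take up interleukin 2 through a high-affinity receptor whose alpha chain, CD25, is the product of Il2ra, and interleukin 2 acts on Foxp3 through the kinases JAK1 and JAK3 and the factor STAT5. Tnfrsf4, Tnfrsf18 and Tnfrsf9 encode the costimulatory receptors OX40, GITR and 4-1BB of the TNF receptor family. Lrrc32 encodes GARP, which holds latent TGF-beta at the cell surface, and Gpr83 encodes a G protein-coupled receptor abundant in mouse regulatory T cells.

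Because interleukin 2 acts on Foxp3 through STAT5, the DNA upstream of the members' starts was read for STAT-type letters. RefSeq gave 8 promoters for 6 of the genes in the build GRCm38.p6, all on the plus strand, and the 250 bases before each start were searched. Shown are 3 that overlap no exon of their own gene, for the defining factor, the interleukin 2 receptor chain and 1 costimulatory receptor. Capitals mark TTCNNNGAA, the spacing STAT dimers bind, and GGAAAA or its complement TTTTCC, the core bound by NFAT factors. The Foxp3 window is chrX:7580233-7580482, inside the gene and before its downstream start, where it overlaps an exon of the noncoding gene Flicr. That of Il2ra is chr2:11642542-11642791, and that of Tnfrsf9 is chr4:150919905-150920154.
Foxp3: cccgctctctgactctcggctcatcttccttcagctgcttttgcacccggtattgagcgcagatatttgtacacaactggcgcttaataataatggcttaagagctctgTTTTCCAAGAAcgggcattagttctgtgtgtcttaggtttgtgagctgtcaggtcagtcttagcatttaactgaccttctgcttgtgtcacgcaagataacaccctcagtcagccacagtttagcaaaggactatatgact
Il2ra: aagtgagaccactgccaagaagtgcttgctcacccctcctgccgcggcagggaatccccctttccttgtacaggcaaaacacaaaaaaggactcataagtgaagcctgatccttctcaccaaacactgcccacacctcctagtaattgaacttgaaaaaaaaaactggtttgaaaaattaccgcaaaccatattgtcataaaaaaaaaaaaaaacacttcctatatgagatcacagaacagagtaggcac
Tnfrsf9: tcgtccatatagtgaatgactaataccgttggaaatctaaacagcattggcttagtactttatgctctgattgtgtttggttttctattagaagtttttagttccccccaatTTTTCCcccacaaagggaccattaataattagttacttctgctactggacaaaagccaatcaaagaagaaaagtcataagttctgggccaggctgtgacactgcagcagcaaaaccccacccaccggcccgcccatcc
In the Foxp3 window the STAT-type and NFAT-type letters overlap and form 1 run of capitals, from base -141 to base -131 counted from the start. The Il2ra window holds neither, and the Tnfrsf9 window holds the NFAT-type letters alone.

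Shorter stretches of 29 bases show the same STAT-type spacing before the downstream start of Tnfrsf9, at chr4:150927853-150927881, and before Tnfrsf18, at chr4:156026213-156026241.
Tnfrsf9: caacagctgaTTCCAAGAAacccttcaga
Tnfrsf18: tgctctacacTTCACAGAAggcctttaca
The 9 capital letters of Tnfrsf9 also stand within the capitals of the Foxp3 window. On either strand, TTCNNNGAA stood in 3 of the 8 windows and in 7.02% of 32851 promoters genome-wide. GGAAAA stood in 3 of the 8 and in 20.4% of all promoters. The forkhead letters TGTTTAC (3.17% of all) and the RUNX letters TGTGGT (14.0%) were in none of the 8 windows, and the AP-1 letters TGANTCA (6.75%) were in 1, at Tnfrsf9. A match describes letters only, and binding was not measured.

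Foxp3 measured 53.8 CPM in replicate 1, 26.9 CPM in replicate 2 and 54.2 CPM in replicate 3, a mean of 45.0 ± 15.7 CPM. Replicate 2 was low, and its 95% exact Poisson interval, 24.2 to 29.7 CPM, lay under those of replicate 1 (49.2 to 58.7 CPM) and replicate 3 (50.3 to 58.4 CPM). These intervals cover counting error only. The counts behind them were 509, 377 and 714. In bulk RNA, fewer regulatory T cells and less Foxp3 RNA per cell cannot be told apart. Foxp3 spans bases 7579676 to 7595243 of chromosome X, on the plus strand (Entrez gene 20371), with up to 14 exons in a GENCODE M21 transcript.

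Part of the Foxp3 exons is shared with other genes. In GENCODE M21, 853 exon bases are shared with Flicr, a noncoding gene on the same strand, which counting by strand would not separate. On the opposite strand, 590 are shared with Ccdc22, 373 with the noncoding Gm36995 and 266 with Ppp1r3f. Flicr and Gm36995 were not analysed here. Ccdc22, which encodes a subunit of an endosomal sorting complex, measured 29.6 CPM in replicate 1, 31.0 CPM in replicate 2 and 34.0 CPM in replicate 3, and was thus not low in replicate 2. Ppp1r3f, which encodes a glycogen-targeting subunit of protein phosphatase 1, measured 12.5, 8.63 and 12.4 CPM in replicates 1, 2 and 3. Whether counting used the strand is not given in the sources used here, so reads of Foxp3 and any of these 4 genes may have been shared.

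Il2ra, the alpha chain of the interleukin 2 receptor, had the highest mean CPM of the group. It measured 66.9 CPM in replicate 1, 24.5 CPM in replicate 2 and 59.5 CPM in replicate 3 (50.3 ± 22.6 CPM). Replicate 2 was again the low one, and the highest library was 2.73 times the lowest. That ratio was wider than in 95.4% of the 3834 genes whose mean CPM lay within 2-fold of Il2ra. For the other members the ratio was wider than in 91.7% (Tnfrsf4), 90.7% (Lrrc32), 89.5% (Foxp3), 77.5% (Tnfrsf18), 63.5% (Gpr83) and 46.6% (Tnfrsf9) of the genes at a like level. The levels were in view when the members were chosen, so nothing is read from these shares. Il2ra (Entrez gene 16184) spans bases 11642792 to 11693194 of chromosome 2.

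Of the TNF receptor genes, Tnfrsf18, which encodes GITR, was the highest. It measured 38.4 CPM in replicate 1, 27.7 CPM in replicate 2 and 47.2 CPM in replicate 3 (37.7 ± 9.76 CPM). Tnfrsf4, which encodes OX40, measured 35.3 CPM in replicate 1, 13.3 CPM in replicate 2 and 25.8 CPM in replicate 3 (24.8 ± 11.0 CPM). Both were lowest in replicate 2, but the highest library differed, replicate 3 for Tnfrsf18 and replicate 1 for Tnfrsf4. Tnfrsf9, which encodes 4-1BB, measured 22.2 CPM in replicate 1, 15.4 CPM in replicate 2 and 18.0 CPM in replicate 3 (18.5 ± 3.42 CPM). The 3 genes lie on the plus strand of chromosome 4, Tnfrsf9 (Entrez gene 21942) at bases 150920155 to 150946104, Tnfrsf4 (Entrez gene 22163) at 156013595 to 156016613 and Tnfrsf18 (Entrez gene 21936) at 156026322 to 156028894. In GENCODE M21, Tnfrsf18 shares 414 exon bases with Gm16008, an antisense gene not used here, so reads may have been shared there too. Tnfrsf9 was the most even of the group, and its Poisson interval in replicate 2 (13.4 to 17.6 CPM) overlapped that in replicate 3 (15.8 to 20.4 CPM).

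Lrrc32, which encodes the TGF-beta anchor GARP, was the most uneven. It measured 16.5 CPM in replicate 1, 4.42 CPM in replicate 2 and 15.1 CPM in replicate 3 (12.0 ± 6.60 CPM), so the highest library was 3.73 times the lowest. Lrrc32 (Entrez gene 434215) spans bases 98489305 to 98501831 of chromosome 7. GARP is also made by endothelial cells and platelets. The platelet list, all 6 members measured, summed to 29.6 CPM in replicate 1, 5.85 CPM in replicate 2 and 17.5 CPM in replicate 3. It was low in the same library as Lrrc32 and was led by Itga2b, with 13.5, 3.99 and 8.73 CPM. The endothelial list summed to 154 to 201 CPM, nearly all of it from Pecam1, a gene leukocytes share. Cldn5 had no count in any library and Emcn had counts in replicate 1 alone. Pecam1 was highest in replicate 3, with 185, 151 and 195 CPM in replicates 1, 2 and 3. Cdh5, Kdr and Tek had counts in every library and were highest in replicate 1. Cdh5 measured 4.97, 1.07 and 0.684 CPM in replicates 1, 2 and 3. In the same order, Kdr measured 6.23, 2.07 and 1.44 CPM and Tek 4.44, 0.143 and 0.684 CPM. The olfactory receptor background was also highest in replicate 1, at 0.249 CPM per kilobase. On that scale Cdh5 stood at 1.25, Kdr at 1.14 and Tek at 0.954 in replicate 1. The part of endothelial cells and platelets in the Lrrc32 level was not tested.

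Gpr83 was the lowest by CPM. The gene (Entrez gene 14608) spans bases 14859880 to 14870789 of chromosome 9. It measured 10.4 CPM in replicate 1, 5.28 CPM in replicate 2 and 9.19 CPM in replicate 3 (8.27 ± 2.66 CPM). Replicate 2 stood under the other libraries here too, with an interval of 4.14 to 6.63 CPM against 8.41 to 12.6 CPM in replicate 1 and 7.63 to 11.0 CPM in replicate 3.

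**Figure D1:**
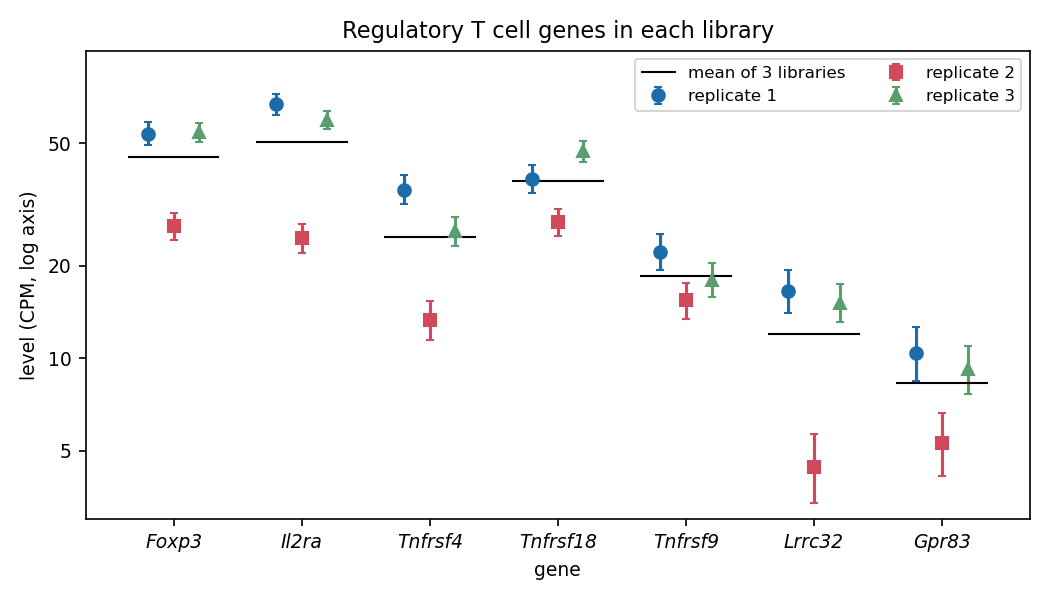
Level of each gene in the 3 libraries in CPM on a log axis, with 95% exact Poisson intervals as bars and the mean as a line. Replicate 2 is the lowest library for all 7 genes, and for Tnfrsf9 its interval overlaps that of replicate 3.

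Counts behind the members ran from 62 (Lrrc32, replicate 2) to 784 (Il2ra, replicate 3). All 7 genes were lowest in replicate 2, and for 6 of them the Poisson interval there lay under both others, as it did for 12.8% of the 9590 genes tested with a mean of at least 5 CPM. That pattern was in view when the members were chosen, so nothing is read from the difference. Replicate 2 was also the lowest library for 28.4% of these 9590 genes, and for 43.2% of all 15490 genes tested. The 7 members stayed lowest in replicate 2 when scaled with DESeq2's size factors, with library totals alone, or without mitochondrial ribosomal RNA. By CPM, 5 members were highest in replicate 1 and 2 in replicate 3. The members had a median of 24.8 CPM, against 12.4 CPM over all genes tested.

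Per kilobase, which sets genes of different length on 1 scale, the order changed. Tnfrsf18, of 1007 bases, came first with 37.5 ± 9.69 CPM per kilobase, at the 89.5th percentile of the genes tested. Tnfrsf4 followed with 21.5 ± 9.54, then Foxp3 with 11.4 ± 3.99 and Il2ra with 11.4 ± 5.11 CPM per kilobase. Tnfrsf9 stood at 8.34 ± 1.54, Gpr83 at 3.67 ± 1.18 and Lrrc32 at 3.15 ± 1.73 CPM per kilobase. Of neighbours in this order, Tnfrsf9 and Gpr83 alone had ranges over the libraries that did not overlap. Tnfrsf18 lay above Tnfrsf4, and Tnfrsf4 above Foxp3, in 3 of 3 libraries, while Foxp3 lay above Il2ra in 2 of 3. The median member was at 11.4 CPM per kilobase, against 5.50 over all genes tested.

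Since Foxp3 marks a subset of CD4 T cells, its counts were also set against those of Cd4, the gene of the helper T cell coreceptor. Foxp3 gave 11.2 counts per 100 counts of Cd4 in replicate 1, 16.1 in replicate 2 and 11.5 in replicate 3 (12.9 ± 2.74). Replicate 2, the lowest by CPM, was the highest on this scale, with an exact 95% binomial interval of 14.4 to 17.9 against 10.2 to 12.2 in replicate 1 and 10.7 to 12.5 in replicate 3. Cd4 itself measured 482, 167 and 470.4 CPM in replicates 1, 2 and 3. Per kilobase, the level of Foxp3 was 8.80% to 12.7% of that of Cd4. Cd4 is also carried by some myeloid cells, whose part in these counts was not tested.

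Set against Cd4, 6 of the 7 members were highest in replicate 2, with Lrrc32 the exception. So were 94.9% of the 9590 genes with a mean of at least 5 CPM, since Cd4 was low there, and the count is no feature of the members. Il2ra was the most even, with 13.9, 14.7 and 12.7 counts per 100 Cd4 counts in replicates 1, 2 and 3. Tnfrsf18 (7.96, 16.5 and 10.03) and Tnfrsf9 (4.61, 9.21 and 3.83) were high in replicate 2 on this scale, though both were lowest there by CPM, as Cd4 was. The ratio of the highest to the lowest library was narrower than by CPM for 5 members and wider for these 2. For Il2ra it was 1.16 per Cd4 count against 2.73 by CPM, and for Lrrc32 1.29 against 3.73. Against other T cell receptor genes the outcome depended on the gene. Cd3e was itself highest in replicate 2, at 439.5 CPM against 315 in replicate 1 and 378 in replicate 3, and set against it all 7 members were lowest there and all 7 ratios were wider than by CPM. Cd3d, Cd3g and Trac, tried after the data were seen, were lowest in replicate 2. Set against these 3 genes, 6, 5 and 6 members were lowest there, as were 10.2%, 8.14% and 10.6% of the 9590 genes. All 7 ratios were narrower than by CPM. The members' low values in replicate 2 were in view when they were chosen, so nothing is read from these counts. Whether a ratio narrows or widens depends on where the denominator is low, and the share over all genes was not computed.

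**Figure D2:**
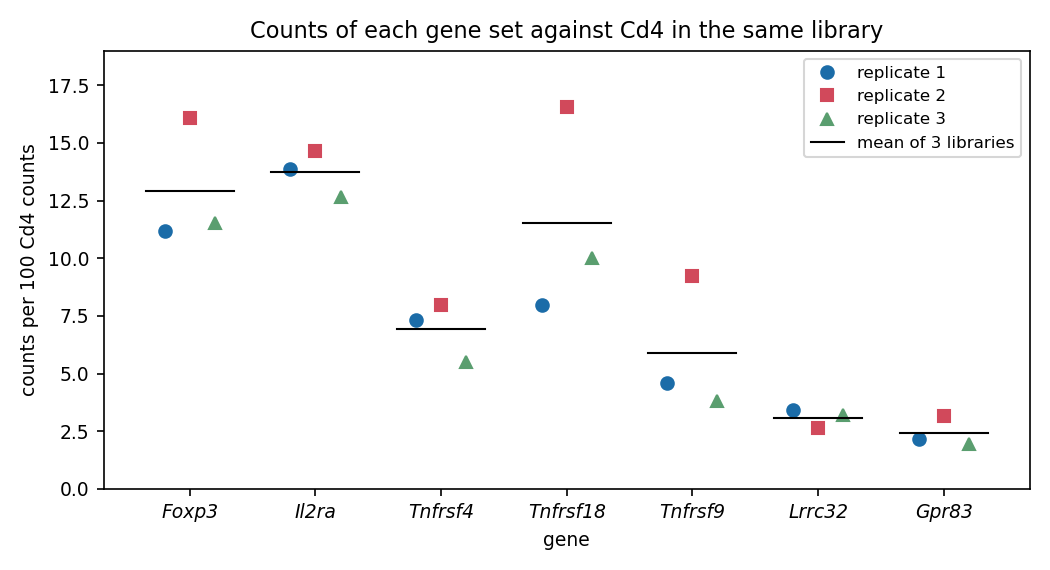
Counts of each gene per 100 counts of Cd4 in the same library, by replicate, with the mean of the 3 libraries as a line. Replicate 2 is highest for all genes but Lrrc32, and the gap is widest for Tnfrsf18 and Tnfrsf9.

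Tnfrsf18 and Tnfrsf9 are also used by NK cells and activated CD8 T cells. The NK list, all 4 members measured, summed to 39.3 CPM in replicate 1, 373 CPM in replicate 2 and 139 CPM in replicate 3, with each member highest in replicate 2. Together with Cd8a, the list was high in replicate 2, where these receptor genes were high per Cd4 count but lowest by CPM. The part of the list in their levels was not tested. Il2ra is also used by group 2 innate lymphoid cells and precursor B cells. The innate lymphoid list summed to 32.1, 8.56 and 26.5 CPM in replicates 1, 2 and 3, over 4 of 5 members, with Il5 at 0 in replicates 1 and 3. Most of that sum came from Rora, with 19.5, 6.35 and 16.6 CPM. The precursor B list summed to 16.9, 3.92 and 11.7 CPM, over 3 of 4 members and mostly from Dntt. Both lists were lowest in replicate 2, as Il2ra was, and their part in its level was not tested. Dendritic cells and mast cells carry some of these receptors as well. The dendritic list summed to 16.6 to 41.2 CPM over all 5 members and the mast cell list to 0.856 to 4.33 CPM over 3 of 4, with Cpa3 at 0 in replicate 2.

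Genes that act with the members were tested against a level of 1 CPM with edgeR's quasi-likelihood test. Of 56 such genes in 5 lists, 49 lay above 1 CPM, 87.5% with the untested Tnfsf18 counted in the base. Of all 15490 genes tested, 68.6% did. No companion gene was called below, by edgeR or DESeq2, nor was any of all genes tested (0 at an unadjusted p under 0.05). With no call in that direction over the whole table, this is no sign that levels lay at or above 1 CPM. Il2 and Il10 were under 1 CPM in every library. The companion genes had a median of 16.7 CPM per kilobase, against 5.50 over all genes tested. The 6 not called were Il2, Tnfsf4, Tnfsf9, Il10, Ccr8 and Areg, and Tnfsf18 had too few counts to test.

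All 16 factors that work with or beside Foxp3 lay above 1 CPM, as did 68.6% of all genes tested. Ikzf2, which encodes Helios and is abundant in thymus-derived regulatory T cells, measured 218 CPM in replicate 1, 127 CPM in replicate 2 and 202 CPM in replicate 3 (edgeR adjusted p = 6.26e-13). It was low in the same library as Foxp3. Ikzf4, which encodes the Foxp3 corepressor Eos, measured 14.5, 4.35 and 11.2 CPM in replicates 1, 2 and 3 (edgeR adjusted p = 1.23e-06). Per kilobase Satb1, a chromatin organiser that Foxp3 represses, was highest with 129 ± 22.9, and Foxo1, a factor of naive T cells and regulatory T cells, came next with 56.6 CPM per kilobase. Nr4a2, a factor induced by T cell receptor signals, was lowest with 2.05 and Ikzf4 next with 2.79 CPM per kilobase. In this list 2 of the 16 were lowest in replicate 2 (12.5%), against 28.4% of genes with a mean of at least 5 CPM.

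Of the 8 genes of the interleukin 2 axis, 7 lay above 1 CPM, against 68.6% of all genes tested. The kinase gene Jak1 (254 CPM per kilobase) and Il2rg, the common gamma chain (199 CPM per kilobase), stood highest. Il2rb, the beta chain that CD8 T cells and NK cells share, measured 125 CPM in replicate 1, 451 CPM in replicate 2 and 195 CPM in replicate 3. It was thus highest in the library where Il2ra was lowest, while Il2rg was even at 323, 327 and 310.1 CPM. Il2, the cytokine gene, measured 0.634, 0.357 and 0.38 CPM and was not called (edgeR adjusted p = 0.609). Cish, a target of STAT5, was next lowest of the list with 5.87 CPM per kilobase.

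The ligands of the 3 TNF receptors were near the limit of detection. Tnfsf4, the ligand of OX40, measured 0.317, 0.143 and 1.14 CPM in replicates 1, 2 and 3 (edgeR adjusted p = 0.672). Tnfsf9, the ligand of 4-1BB, measured 0.845, 1.28 and 0.532 CPM (edgeR adjusted p = 0.914). Tnfsf18, the ligand of GITR, had 0.317 and 0.38 CPM in replicates 1 and 3 and no count in replicate 2, which allows up to 0.214 CPM there. Per kilobase in replicate 1, Tnfsf4 (0.197) and Tnfsf18 (0.154) lay under the olfactory receptor mean of 0.249, and Tnfsf9 (0.687) above it. In replicates 2 and 3, each ligand with counts lay above that mean (0.0207 and 0.0495). All 4 TRAF adaptors, which carry signals from such receptors, lay above 1 CPM, as did 68.6% of all genes tested. Traf1 (50.3 CPM per kilobase) and Traf5 (26.2 CPM per kilobase) were the highest of the 4.

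All 7 genes of the TGF-beta axis lay above 1 CPM, as did 68.6% of all genes tested. Tgfbr2, a receptor chain (77.8 CPM per kilobase), and Tgfb1, the cytokine that GARP anchors (55.3 CPM per kilobase), were highest. Itgb8, the integrin chain that releases TGF-beta from GARP, was lowest per kilobase with 3.26. By CPM it measured 17.2 in replicate 1, 2.00 in replicate 2 and 11.0 in replicate 3, low in the same library as Lrrc32. Itgav, its partner chain, was next lowest with 13.6 CPM per kilobase and was even by CPM, with 99.5, 99.1 and 89.9 in replicates 1, 2 and 3.

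Of 18 further surface and effector genes of regulatory T cells, 15 lay above 1 CPM (83.3%, against 68.6% of all genes tested). In replicate 2, 14 were lowest (77.8%). That share was 43.2% of all genes tested and 28.4% of those with a mean of at least 5 CPM. The list was chosen with earlier results of these data known, so nothing is read from the differences. Ctla4, the inhibitory receptor that takes B7 ligands, measured 48.8 CPM in replicate 1, 11.8 CPM in replicate 2 and 58.1 CPM in replicate 3 (edgeR adjusted p = 9.49e-09). Izumo1r, which encodes the folate receptor 4 of regulatory T cells, was highest per kilobase with 26.6 and measured 64.6, 20.5 and 62.0 CPM in replicates 1, 2 and 3 (edgeR adjusted p = 8.89e-10). Both were low in replicate 2, as the members were. Tnfrsf1b, the TNF receptor 2 gene, came next with 21.5 CPM per kilobase but was highest in replicate 2, with 94.4, 139.6 and 82.3 CPM in replicates 1, 2 and 3.

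The suppressive cytokine gene Il10 was at the bottom of that list, with 0.740, 0.143 and 0.911 CPM in replicates 1, 2 and 3 (edgeR adjusted p = 0.711). Areg, a growth factor of tissue regulatory T cells, measured 0.528, 0 and 1.37 CPM (edgeR adjusted p = 0.770). Ccr8, a chemokine receptor of tumour regulatory T cells, measured 3.17, 1.21 and 2.66 CPM and was not called (edgeR adjusted p = 0.0767). Without replicate 2, Ccr8 passed (edgeR adjusted p = 0.039).

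**Figure D3:**
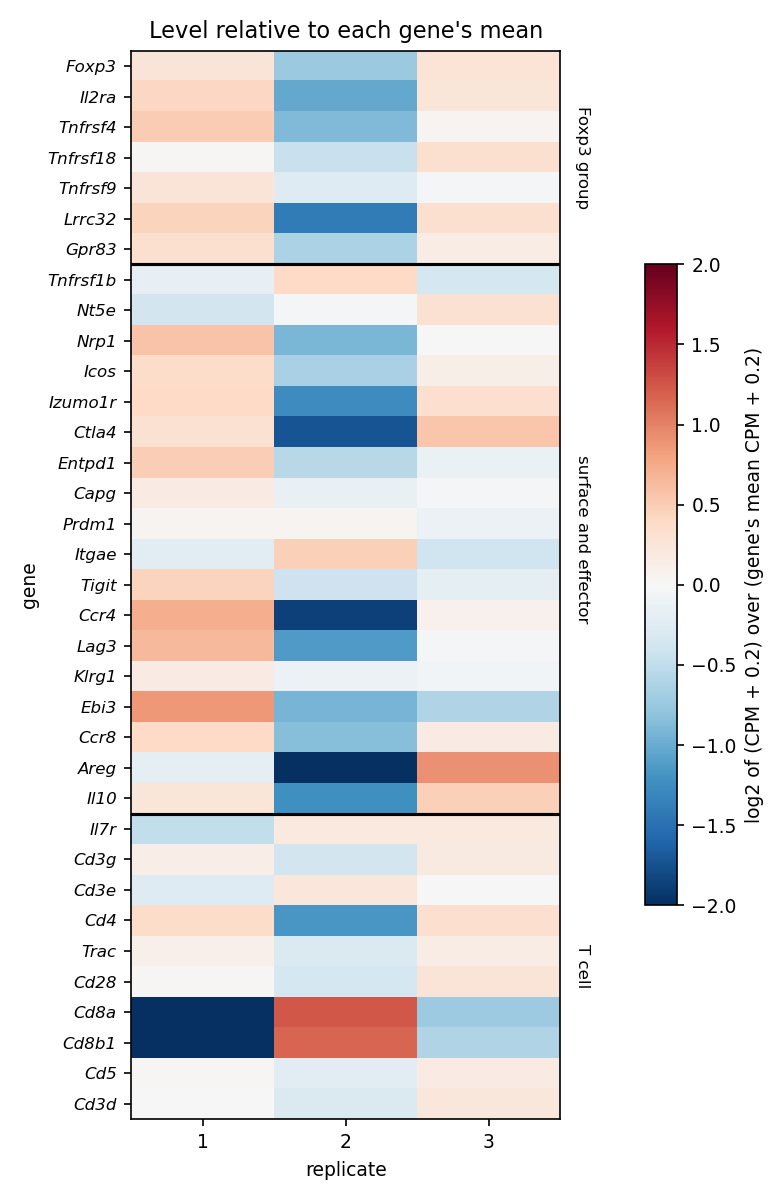
Level of each gene in each library relative to its own mean, as log2 of (CPM + 0.2) over (mean CPM + 0.2), for the Foxp3 group, the surface and effector list and the T cell list. All 7 genes of the Foxp3 group and 14 of 18 surface and effector genes are lowest in replicate 2, as are 6 of 10 T cell genes (Cd4, Cd3d, Cd3g, Trac, Cd28 and Cd5), while Cd8a and Cd8b1 are highest there. Replicate 2 was the lowest library for 43.2% of all 15490 genes tested. Colours saturate at the ends of the scale.

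**Figure D4:**
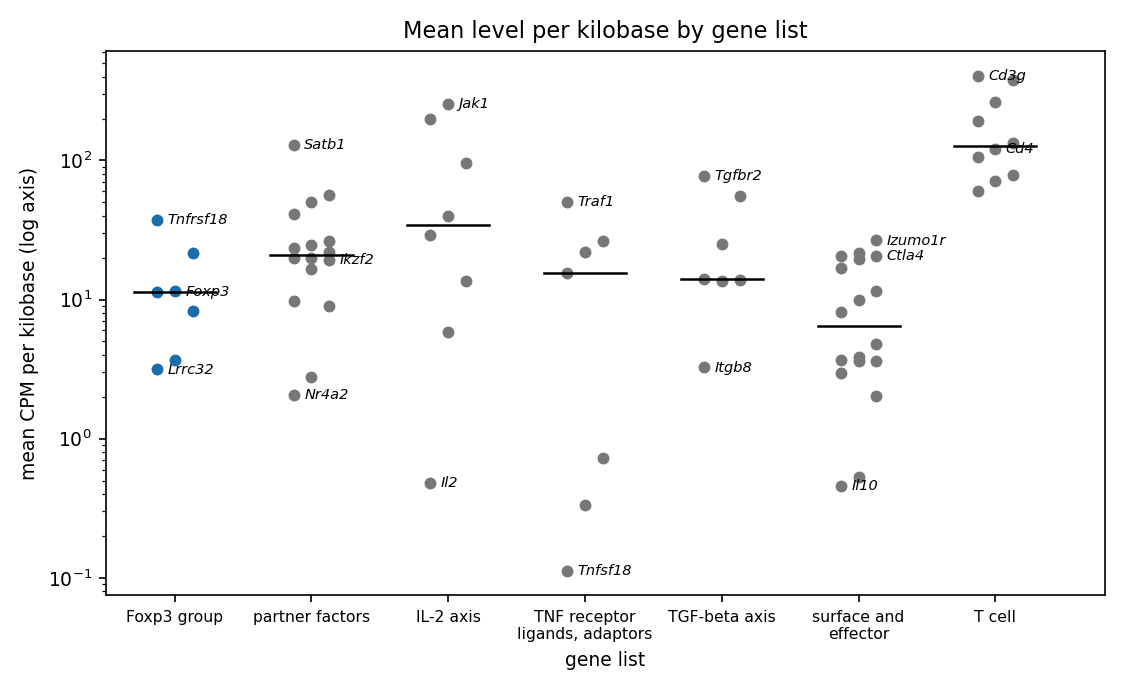
Mean CPM per kilobase on a log axis for each gene (point) of the Foxp3 group and 6 other lists, with the list median as a line. The Foxp3 group spans 3.15 (Lrrc32) to 37.5 (Tnfrsf18) CPM per kilobase, under every T cell gene shown, and Il2, the 3 TNF ligands, Il10 and Areg lie under 1.

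The genes nearest to Foxp3 in their pattern over the 3 libraries stood in none of the lists used here. By Euclidean distance between centred log2 CPM, over 8276 other genes with a mean of at least 10 CPM, the nearest 5 were Spsb1 (0.0291), Commd1 (0.0432), Isca2 (0.0512), Polg2 (0.061) and Srp9 (0.0626). Spsb1 measured 12.5, 6.13 and 12.2 CPM in replicates 1, 2 and 3. Ikzf2 ranked 132 (distance 0.24), Il2ra 217 (0.32), Tnfrsf4 290 (0.36), Tnfrsf18 323 (0.37) and Cd4 405 (0.41). Tnfrsf9 ranked 869 (0.56), Lrrc32 1431 (0.68) and Ctla4 3928 (0.97), and Gpr83 was under the level limit. With only 3 libraries many genes share a pattern, and 644 genes, 7.78%, lay within a distance of 0.5.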

How the data were processed

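Raw read counts per gene were deposited for 3 libraries, prepared with a stranded low-input total RNA kit per the labels. The authors deposited with them each gene's length in bases and Entrez number, with no account of the source. The submitters' processing notes name bcl2fastq, STAR 2.75, featureCounts and DESeq2 1.18.1 with mm10 and give no role for each. Annotation release, strand setting and treatment of reads with several matches are not given in the sources used here.

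From the counts, CPM were computed with TMM factors of 1.04, 1.01 and 0.950 in edgeR 4.0.16. Genes that summed to 10 counts or more entered a two-sided quasi-likelihood F test of an intercept-only model against 1 CPM, with Benjamini-Hochberg adjustment over 15490 genes and a threshold of 0.05. The test function takes no design with 1 column, so the statistic was computed from edgeR's deviances and checked on simulated data. Repeats used DESeq2 1.42.0, other scalings and filters, and each library left out. Samples were mapped to the group by title.

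The members and lists were chosen with earlier results of these data known. Named are all members and, from each companion list, the 2 highest and 2 lowest genes per kilobase, with Ctla4, Ikzf2, Ikzf4, Il2, Il2rb, Il2rg, Tnfsf4, Tnfsf9, Tnfsf18, Tgfb1 and Cd4, and the 5 genes nearest to Foxp3 (prior count 0.5). Genes of a list that were not called, cell type markers and genes that overlap a member were named after their values were seen. Il13, Mcpt8 and Igll1 were not analysed here. Gene positions come from RefSeq GRCm38.p6, the assembly of mm10, and exon overlaps from GENCODE M21.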

Additional observations from a re-analysis of the deposited data

How the results depend on the processing

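The mean level of each of the 7 members moved by at most 0.453% with DESeq2's size factors or library totals alone, and by at most 14.3% with totals without mitochondrial ribosomal RNA, which raised the median gene by 0.19 on the log2 scale. With 1 library left out, the highest mean of a member was 1.22 to 1.64 times its lowest, that of Lrrc32 running from 9.59 to 15.7 CPM. The members' median ran from 19.2 to 30.4 CPM (24.8 with all libraries) and the mean of Foxp3 counts per 100 Cd4 counts from 11.3 to 13.8. The count of companion genes above 1 CPM was 48 to 50 over 9 alternatives, and that of all genes 10142 to 10809. Ebi3, named after its values were seen, lost its call without replicate 1 (edgeR adjusted p = 0.148) and in DESeq2 (adjusted p = 0.0626). Ccr8 passed with totals without mitochondrial ribosomal RNA (edgeR adjusted p = 0.0398), with filterByExpr (0.0191) and without replicate 2 (0.039). Per kilobase, 6 of 7 members changed rank. Surface and effector genes lowest in replicate 2 were 13 with library totals alone, against 14. No paired analysis was possible because the labels give 1 group. The depth limits what can be said of the TNF ligands, since 3 counts are 0.214 to 0.317 CPM.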

Other observations

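Some members lie beside each other or beside other immune genes. Tnfrsf4 and Tnfrsf18 are adjacent on chromosome 4, 9708 bases apart, on the same strand. An exon of Sdf4, which was not read here, overlaps the 250-base window before Tnfrsf4, so B3galt6 is not the closest gene on that side. B3galt6, the nearest protein-coding gene to end before Tnfrsf4, lies 20916 bases away. It measured 7.19, 8.42 and 5.77 CPM in replicates 1, 2 and 3. Ttll10, on the far side of Tnfrsf18, measured 2.43, 0 and 0.228 CPM. B3galt6 was highest in replicate 2, where Tnfrsf4 and Tnfrsf18 were lowest.

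The next protein-coding gene after Gpr83 on chromosome 9, 15024 bases away, is Izumo1r, the folate receptor 4 gene. Both were lowest in replicate 2. Mre11a, the DNA repair gene on the other side of Gpr83, measured 58.9, 65.8 and 45.7 CPM in replicates 1, 2 and 3 and was highest in replicate 2. After Il2ra on chromosome 2, 11977 bases away, comes Il15ra, which encodes the alpha chain of the interleukin 15 receptor. It measured 6.76, 7.99 and 5.62 CPM in replicates 1, 2 and 3, also highest in replicate 2, where Il2ra was lowest. Positions and levels stand here as values, and no relation between neighbours was tested.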
